A study of Mus musculus with 2 samples.

Results

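This account covers 10 genes of proteins that a tumour cell shows to lymphocytes and other leukocytes, measured in YTN16, a mouse gastric cancer line. They were taken by gene symbol (Cd274, Vtcn1, Cd276, Tnfrsf14, Tnfsf10, Pvr, Nectin2, Cd47, Vcam1 and Icam1), and all 10 were found among the 45777 genes of the deposited table. The control group (shControl, genotype labelled WT) carried a control short hairpin RNA. The knockdown group (shGas6) carried a hairpin against Gas6, the secreted ligand of the receptor AXL, in a study of GAS6/AXL signalling and immunotherapy response. Both cultures were YTN16 grown in serum-containing medium, and each group had 1 library, so a difference between hairpins, between cultures and between libraries cannot be told apart. No lymphocytes were part of either culture, and the values are RNA, not surface protein.

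The ligands fall into families with different receptors. B7 family proteins such as PD-L1 (Cd274), B7-H4 (Vtcn1) and B7-H3 (Cd276) restrain T cells or have been studied for doing so, PD-L1 through its receptor PD-1. HVEM (Tnfrsf14) binds BTLA, CD160 and LIGHT, and TRAIL (Tnfsf10) triggers apoptosis through death receptors. CD155 (Pvr) and CD112 (Nectin2) are bound by the activating receptor CD226, and CD155 also by the inhibitory receptors TIGIT and CD96. CD47 tells phagocytes not to engulf a cell by binding SIRP-alpha. VCAM-1 and ICAM-1 hold leukocytes through the integrins VLA-4 and LFA-1, and both genes are textbook targets of NF-kB in endothelium and epithelium.

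The knockdown label was checked first. Gas6 had 2480 counts in shControl and 731 in shGas6, so 29.0% of the control level remained. Total counts were 50756676 and 51807140. Of 11 gastric epithelial markers 8 had at least 1 CPM (counts scaled to library size) in 1 library or both, with a median log2 ratio of 0.67. Krt8 stood at 1793 (shControl) and 2637 CPM (shGas6), whereas Epcam was at 0.629 and 0.503 CPM and Cldn7 had 0 counts in both. In shGas6, 2 of the markers were at least 2-fold higher (Krt7, with 116 and 1095 counts, and Krt18, at 424 and 1016 CPM) and 1 at least 2-fold lower (Tff2, with 993 and 93 counts). Of 15 leukocyte markers, 1 (Cd68) reached 1 CPM and 5 had 0 counts in both libraries, among them Cd8a, Ms4a1 and Tyrobp. Their summed level was 6.35 CPM in shControl and 5.07 in shGas6. Endothelial markers summed to 15.2 and 5.24 CPM, mostly Cdh5, with Kdr, Tek and Cldn5 at 0, and the 10 fibroblast markers to 19.6 and 23.7 CPM, mostly Acta2.

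The stretches before the transcription starts of 4 members are shown because 3 of them (Tnfrsf14, Tnfsf10, Vtcn1) belong to lower-level ligands that were scarcer still in shGas6, while the fourth, Icam1, is the most abundant member and was not scarcer there. Each is the 250 bases before a RefSeq start, 5′ to 3′ in the direction of the gene, on build GRCm38.p6. Their places are chr4:154928078-154928327 (- strand) for Tnfrsf14, chr3:27316827-27317076 (+ strand) for Tnfsf10, chr3:100825209-100825458 (+ strand) for Vtcn1 and chr9:21015690-21015939 (+ strand) for Icam1. The Tnfrsf14 stretch lies inside the span of its gene (154918487 to 154928620), so its start is not the outermost one. The other stretches end where the gene span begins. Which starts were used in YTN16 was not tested. Capitals mark matches, on either strand, to the core letters bound by interferon regulatory factors (AANNGAAA), to a STAT-type element (TTCNNNGAA) or to an NF-kB-type element (GGAAATTCC), which were chosen after the sequences were seen.
Tnfrsf14: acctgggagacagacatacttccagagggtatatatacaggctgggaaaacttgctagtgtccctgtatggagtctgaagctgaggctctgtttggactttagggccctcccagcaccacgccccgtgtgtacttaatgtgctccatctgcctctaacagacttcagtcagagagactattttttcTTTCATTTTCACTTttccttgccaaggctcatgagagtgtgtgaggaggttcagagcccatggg
Tnfsf10: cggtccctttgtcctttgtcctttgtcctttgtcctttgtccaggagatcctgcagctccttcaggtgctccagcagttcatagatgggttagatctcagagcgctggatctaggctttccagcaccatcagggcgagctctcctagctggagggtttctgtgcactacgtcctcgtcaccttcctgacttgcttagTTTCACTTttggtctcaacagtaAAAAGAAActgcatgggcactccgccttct
Vtcn1: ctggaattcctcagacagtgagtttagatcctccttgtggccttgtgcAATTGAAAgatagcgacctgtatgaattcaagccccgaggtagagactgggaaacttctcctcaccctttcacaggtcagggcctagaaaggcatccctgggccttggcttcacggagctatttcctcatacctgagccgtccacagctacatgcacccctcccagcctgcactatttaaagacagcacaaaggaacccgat
Icam1: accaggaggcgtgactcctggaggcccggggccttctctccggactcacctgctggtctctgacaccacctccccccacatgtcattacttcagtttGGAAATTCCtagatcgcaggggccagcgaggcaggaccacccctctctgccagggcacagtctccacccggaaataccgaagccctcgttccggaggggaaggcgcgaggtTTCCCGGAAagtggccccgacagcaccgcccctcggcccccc
The interferon-factor letters occur in the Tnfrsf14 stretch at 64 to 57 and, overlapping these, at 58 to 51 bases before the start. They occur in the Tnfsf10 stretch at 53 to 46 and at 30 to 23, and in the Vtcn1 stretch at 202 to 195. Icam1 held none of them, but an NF-kB-type match at 153 to 145 and a STAT-type match at 42 to 34 bases before its start. Of 32851 windows of the same length before RefSeq starts, 21.3% held the interferon-factor letters, 7.02% the STAT-type and 0.286% the NF-kB-type letters. The NF-kB-type letters have no free position, unlike the other patterns, and were chosen with the Icam1 stretch in view. The share that holds them is therefore not comparable with the other shares and is no measure of how unusual the Icam1 match is. Of the other matched members, Cd274 also held the interferon-factor letters, at 175 to 168, while Cd276, Nectin2 and Cd47 held none of the 3. Variant NF-kB-type letters were not searched. No stretch was available for Vcam1 and Pvr, so these were not searched. A match is a description of letters and not of binding.

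The ligands were not lower or higher together. In shGas6, 5 of the 10 were at least 2-fold lower (Vtcn1, Vcam1, Tnfrsf14, Tnfsf10 and Cd276), 1 was at least 2-fold higher (Pvr), and 4 lay within 2-fold (Icam1, Nectin2, Cd47 and Cd274). Among all 13367 genes with 1 CPM or more in at least 1 library, the share past 2-fold was 6.19% on the lower side and 8.64% on the higher side (14.8% together). The median log2 ratio of the 10 genes was -0.63, against -0.01 over all measured genes. At 4-fold or more, 4 of the 10 were lower and 0 higher, against 2.56% and 3.16% of all measured genes. All 10 passed the 1 CPM filter, but Vtcn1, Tnfrsf14 and Tnfsf10 passed it only through shControl, where they were higher. The 10 genes were also chosen with earlier results of these data known. Their counts beside the shares of all genes are therefore a description only. These counts rest on size, since 1 library per group allows no test, and every interval below is a 95% counting interval only. In bulk RNA, fewer cells with a transcript and less of it per cell cannot be told apart.

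**Figure D1:**
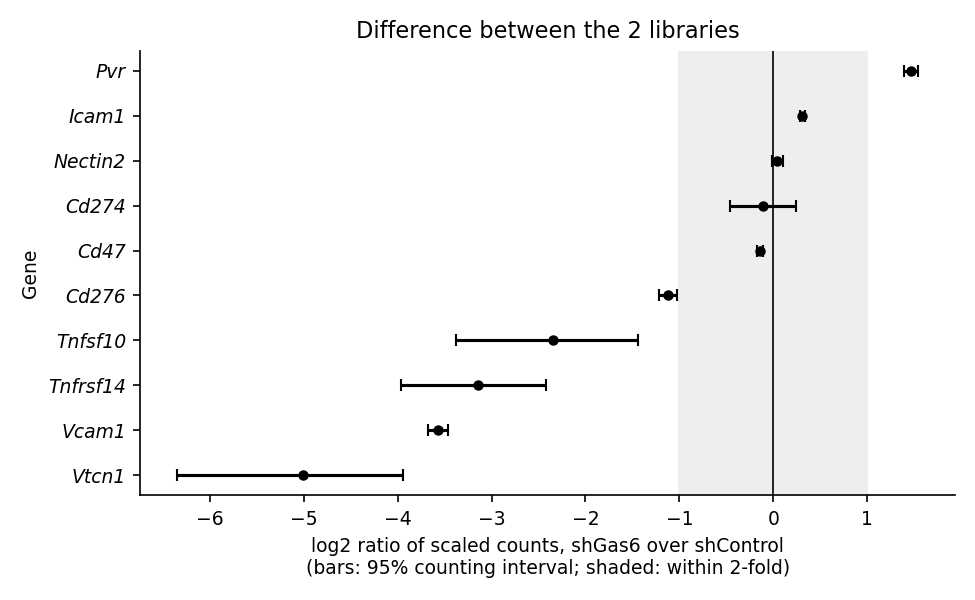
Log2 ratio of scaled counts, shGas6 over shControl (x axis), for each of the 10 genes (y axis), with 95% counting intervals as bars and the range within 2-fold shaded. Vtcn1, Vcam1, Tnfrsf14, Tnfsf10 and Cd276 lie to the left of the shading and Pvr to the right.

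Levels between genes were compared per transcript length, in the deposited length-scaled unit, TPM. In shControl the order ran from Icam1 (275 TPM) through Cd47 (121), Vcam1 (111), Nectin2 (78.0), Cd276 (34.6) and Pvr (27.7) to Vtcn1 (3.29), Tnfrsf14 (1.40), Cd274 (1.38) and Tnfsf10 (0.472). The 6 abundant genes and the 4 scarce ones were thus separated by a wide step, between Pvr and Vtcn1. In shGas6 the order was Icam1 (352 TPM), Cd47 (123), Nectin2 (81.9), Pvr (78.9), Cd276 (16.5), Vcam1 (9.63), Cd274 (1.33), Tnfrsf14 (0.139), Vtcn1 (0.0986) and Tnfsf10 (0.0954). Vcam1 thereby went from rank 1618 to rank 9115 of the 13367 measured genes by TPM, and Pvr from rank 5491 to rank 2390. Neighbours in these orders cannot be tested against a spread, since each level comes from 1 library.

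**Figure D2:**
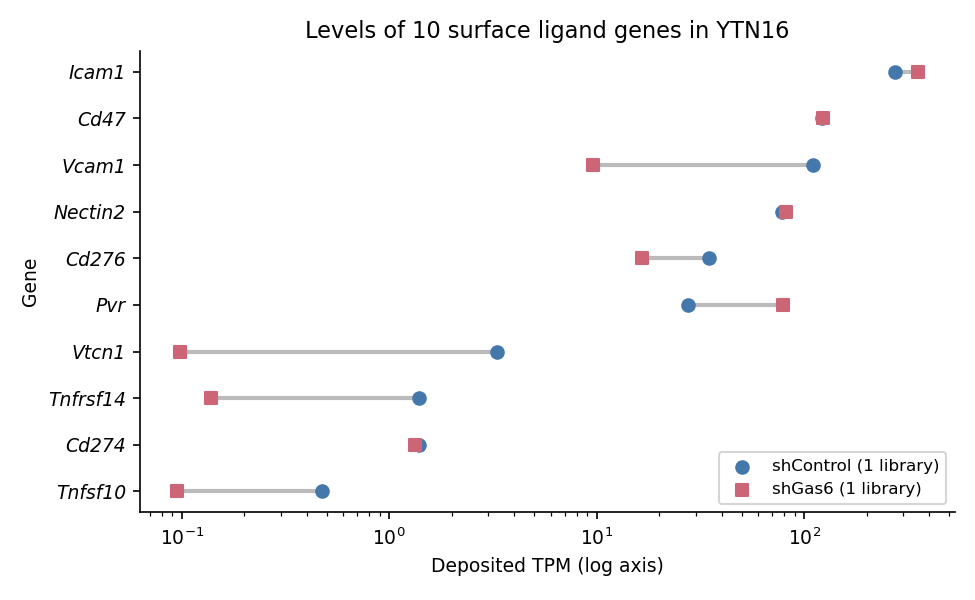
Deposited TPM (log axis) of the 10 genes (y axis) in the shControl library (circles) and the shGas6 library (squares), ordered by the shControl level. Icam1, Cd47 and Nectin2 are above 70 TPM in both libraries, while Vcam1 goes from 111 to 9.63 TPM and Pvr from 27.7 to 78.9.

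The adhesion molecules went apart. Vcam1 (NCBI gene 22329, chromosome 3, 116110020 to 116129688, GRCm38.p6) was counted 9639 times in shControl against 825 times in shGas6 (190 against 16.0 CPM). That is an 11.9-fold lower level (11.1 to 12.8), or 8.41% of control, and the counts behind it are large in both libraries. Icam1 (NCBI gene 15894, chromosome 9, 21015940 to 21028814) was counted 18185 and 22887 times (358 and 443 CPM), 1.24-fold higher in shGas6 (1.21 to 1.26). Icam1 was therefore the most abundant member in both libraries, and the TPM ratio of Icam1 to Vcam1 went from 2.49 in shControl to 36.6 in shGas6. Taken directly from the counts, which removes any library scaling, the Icam1 to Vcam1 ratio was 14.7-fold larger in shGas6 (conditional exact 95% counting interval 13.7 to 15.9). Among all measured genes, 122 had a lower log2 ratio than Vcam1. Of the 500 measured genes nearest to Vcam1 in mean level (the mean log2 CPM of both libraries), 5.2% were at least 2-fold apart in either direction and 0 were as far below their control level as Vcam1. The 2 genes nearest to Vcam1 in the plane of both CPM levels, over 2 libraries, were Glul (glutamine synthetase, 135 and 20.2 CPM) and Nox1 (an NADPH oxidase, 125 and 12.7 CPM), at distances of 0.60 and 0.69 on the log2 scale. Even these were some way off, so few genes sat where Vcam1 did. The summed level of 9 endothelial markers, which name another cell type that carries VCAM-1, was lower in shGas6 too (15.2 and 5.24 CPM). Most of this sum was Cdh5 (11.8 and 3.73 CPM). Pecam1 was level (30 and 29 counts), Emcn had 0 and 4 counts, and Kdr, Tek and Cldn5 were at 0 in both. The part of endothelial cells in the Vcam1 difference was not tested.

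Other leukocyte adhesion genes were mixed in direction. Of 12 measured genes of that list, 3 were at least 2-fold higher (Icam4, Mcam and Jam2, the last named after its values were seen), 2 were at least 2-fold lower (Selplg and Cd34) and the median log2 ratio was -0.10. Of these 5, Icam4 and Mcam passed the 1 CPM filter only through shGas6 and Selplg only through shControl. The filter thus fixed the direction of their difference, though not its size. Icam4, which lies next to Icam1, had 39 and 142 counts, 3.58-fold higher (2.50 to 5.24). Selplg, which encodes the selectin ligand PSGL-1, had 125 and 22 counts, 5.78-fold lower in shGas6 (3.65 to 9.55). Cd34, a stem cell and endothelial surface protein, had 345 and 76 counts, 4.62-fold lower. The abundant adhesion gene Cd44 (751 and 557 CPM, named after its values were seen) stayed within 2-fold.

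The pair of CD226 ligands also went apart, although the genes lie on the same chromosome. Pvr (NCBI gene 52118, chromosome 7, 19903578 to 19921143) was counted 2049 times in shControl against 5748 times in shGas6 (40.3 against 111 CPM), a 2.76-fold higher level (2.62 to 2.90). Nectin2 (NCBI gene 19294, chromosome 7, 19716644 to 19749573) was counted 4847 and 5073 times (95.3 and 98.1 CPM), a ratio whose counting interval includes 1 (1.03-fold higher, 0.989 to 1.07). The genes are 154005 bases apart. Pvr was at 0.355 of the Nectin2 level by TPM in shControl and at 0.964 in shGas6, so the smaller of the pair in shControl was about level with the other in shGas6. From the counts alone, the Pvr to Nectin2 ratio was 2.68-fold larger in shGas6 (2.51 to 2.86). Of the 500 measured genes nearest to Pvr in mean level, 4.6% were at least 2-fold apart in either direction, and 9 were at least as far above control as Pvr. The genes nearest to Pvr in both levels were Rin1, a RAS effector (39.7 and 107 CPM), and Rapgef2, an exchange factor for RAP GTPases (38.7 and 110 CPM), at distances of 0.05 and 0.06.

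Related nectin and cadherin genes were higher by median. Of 6 measured genes, 1 was at least 2-fold higher (Cadm4, a nectin-like adhesion protein, at 2.73 and 10.2 CPM, 3.75-fold, 3.10 to 4.55), none was 2-fold lower, and their median log2 ratio was 0.58. Nectin3, a binding partner of nectins and of CD155, was 1.54-fold higher (1.43 to 1.65), at 24.9 and 38.3 CPM. Cdh1, or E-cadherin, which also serves as a ligand of the lymphocyte integrin CD103, was 1.95-fold higher (1.89 to 2.02). Afdn, the cytoplasmic adaptor that anchors nectins to actin, was 1.45-fold higher, at 106 and 154 CPM. Beside Nectin2 on the chromosome, Bcam, an adhesion receptor for laminin, was at 20.8 and 91.1 CPM.

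**Figure D3:**
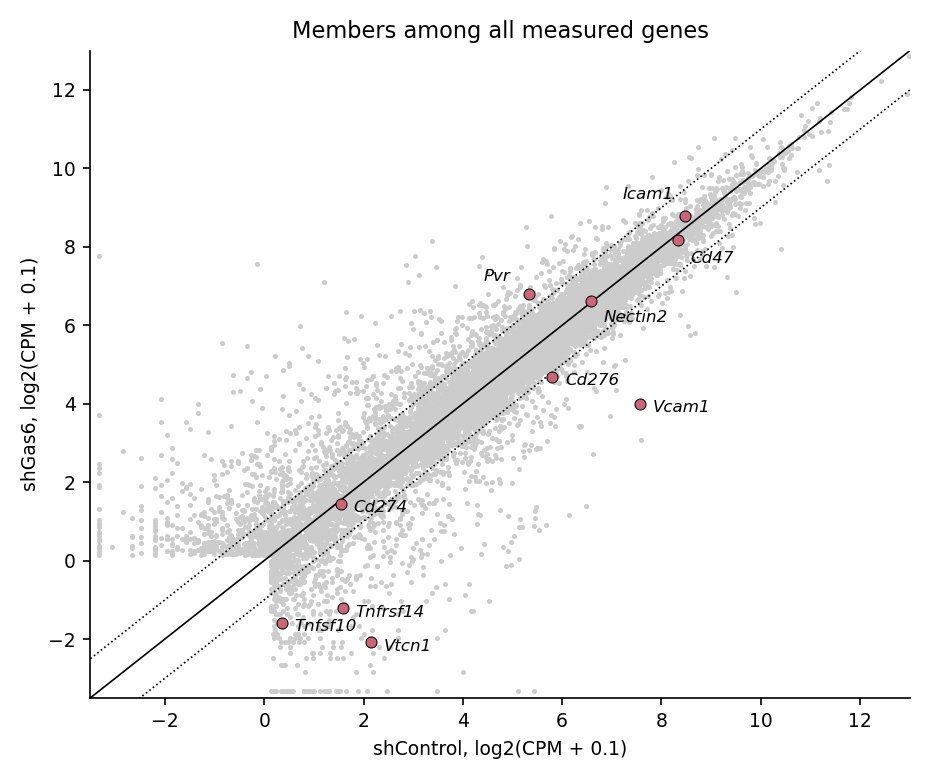
Each grey point is 1 measured gene, with its shControl level on the x axis and its shGas6 level on the y axis, both as log2(CPM + 0.1), and the 10 ligand genes are labelled. The solid line marks equal levels and the dotted lines a 2-fold difference, and Vcam1 lies far below the cloud at its level while Pvr lies just above the upper line.

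Among the B7 family members, B7-H4 and B7-H3 were lower in shGas6 and PD-L1 was about level. Vtcn1 (NCBI gene 242122, chromosome 3, 100825459 to 100896922) was counted 222 times in shControl against 7 times in shGas6 (4.37 against 0.135 CPM), a 32.3-fold lower level (15.4 to 81.2). It was low even in shControl, and 63 measured genes had a lower log2 ratio. Cd276 (NCBI gene 102657, chromosome 9, 58524300 to 58555033) was counted 2835 and 1329 times (55.8 and 25.7 CPM), 2.17-fold lower in shGas6 (2.03 to 2.32), just past the 2-fold mark. Cd274 (NCBI gene 60533, chromosome 19, 29362107 to 29388095) was counted 143 and 135 times (2.81 and 2.61 CPM). Its fold, 1.08 lower in shGas6, had an interval that includes 1 (0.846 to 1.37), so a difference of that size was not detectable at this depth. Cd276 was the most abundant of the 3 in both libraries, and Cd274 stood at 0.0400 of its TPM level in shControl and 0.0805 in shGas6. The Cd274 to Vtcn1 ratio in TPM was 0.420 in shControl and 13.5 in shGas6, with a count ratio 29.9-fold larger (13.5 to 77.6).

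The nearest genes to Cd276 in both levels were Fbxo28 (56.7 and 25.1 CPM) and Ccnf (54.5 and 26.7 CPM), both F-box proteins of ubiquitin ligases. Those nearest to Vtcn1 were Pcdh19, a protocadherin (216 and 8 counts), and Trim30d (249 and 6 counts). The distances were 0.04 and 0.06 for Cd276 and 0.18 and 0.26 for Vtcn1. Of the 500 genes nearest to Cd276 in mean level, 8.2% were at least 2-fold apart in either direction. For Vtcn1 the share was 57.8%, but its mean log2 CPM lies below 0, where only genes that differ could pass the filter. Among the 500 measured genes nearest to Vtcn1 in shControl level alone, an alternative chosen after seeing the data, 27.2% were at least 2-fold apart and 6 were as far below control as Vtcn1 or further.

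The other B7, butyrophilin and co-signalling ligands had a median log2 ratio of -0.01. Of 21 genes on that list, 20 were in the table and 10 were measured, 1 of them at least 2-fold higher and 2 at least 2-fold lower. The higher gene was Igsf11, a ligand of the inhibitory receptor VISTA, at 21.7 and 89.7 CPM, 4.14-fold (3.87 to 4.42). The lower ones were Clec2d, a ligand of an inhibitory natural killer cell receptor (41.8 and 16.8 CPM, 2.49-fold, 2.30 to 2.70), and the butyrophilin Btn1a1 (67 and 25 counts, 2.73-fold, 1.70 to 4.51), which passed the filter only through shControl. Icosl, the ligand of ICOS, had 70 and 129 counts, 1.81-fold higher (1.34 to 2.46). The classical T cell costimulators and the second PD-1 ligand were at or near 0, with Cd80 at 4 counts in each library and Cd86 and Pdcd1lg2 at 0 in both (named after their values were seen), which allows up to 0.0590 CPM in shControl and 0.0580 CPM in shGas6.

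HVEM and TRAIL, the members of the TNF and TNF receptor superfamilies, were scarce in shControl and scarcer in shGas6. Tnfrsf14 (NCBI gene 230979, chromosome 4, 154918487 to 154928620) was counted 148 times in shControl against 17 times in shGas6 (2.91 against 0.329 CPM), an 8.86-fold lower level (5.35 to 15.6). Tnfsf10 (NCBI gene 22035, chromosome 3, 27317077 to 27339665) was counted 60 and 12 times (1.18 and 0.232 CPM), 5.09-fold lower in shGas6 (2.71 to 10.4). The intervals are wide because they rest on 17 and 12 counts, and both lower bounds are beyond 2-fold. Large differences were common among genes this scarce. Of the 500 measured genes nearest in shControl level, 30.2% for Tnfrsf14 and 35% for Tnfsf10 were at least 2-fold apart in either direction. As far below control as the member were 22 of those 500 for Tnfrsf14 and 34 for Tnfsf10. In mean level the same shares were 37.8% and 74.4%, the latter again raised by the filter. The nearest genes in both levels were Glra3 and Fam20a for Tnfrsf14 (distances 0.09 and 0.16), and for Tnfsf10 an uncharacterised locus with the same pair of counts and Slc28a3, a nucleoside transporter (distance 0.02).

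Receptors that bind TRAIL stayed within 2-fold, in both directions. Tnfrsf10b, the mouse death receptor for TRAIL, was at 36.2 and 62.3 CPM, 1.72-fold higher (1.62 to 1.82). The decoy receptors Tnfrsf23 and Tnfrsf22 were 1.44-fold (1.34 to 1.54) and 1.20-fold higher (1.09 to 1.33). Tnfrsf11b, which encodes the soluble decoy osteoprotegerin, was 1.83-fold lower (1.74 to 1.92), with levels of 87.5 and 47.9 CPM. The median log2 ratio of these 4 measured genes was 0.39.

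Other TNF superfamily ligands went both ways, with Tnf farthest from its control level. Of 16 listed genes 5 were measured, 1 at least 2-fold higher and 0 at least 2-fold lower, and 7 had 0 counts in both libraries. Tnf had 196 counts in shControl and 1697 in shGas6, 8.51-fold higher (7.34 to 9.92). The lymphocyte survival factors Tnfsf13 (APRIL) and Tnfsf13b (BAFF) were 1.85-fold (1.68 to 2.04) and 1.60-fold lower, at 49.1 and 30.8 CPM for Tnfsf13b. Tnfsf9, the ligand of 4-1BB, was 1.83-fold lower (1.49 to 2.25), with 262 and 146 counts. The list median log2 ratio was -0.67 and turned to 0.43 when genes of at least 1 count were admitted.

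CD47, the signal against phagocytosis, was abundant and differed little. Cd47 (NCBI gene 16423, chromosome 16, 49851328 to 49912503) was counted 16283 and 14988 times (320 and 290 CPM), 1.11-fold lower in shGas6 (1.08 to 1.13). By deposited TPM it was at 121 and 123, so the sign of this small difference depends on the unit. The deposited FPKM and counts together imply a transcript length for Cd47 in shGas6 that was 92.6% of that in shControl, over 13 listed transcripts. The same quotient was within 1% of 100% for 100% of 3275 genes with a single listed transcript and 100 counts or more in both libraries, and was 100% for Vcam1, Icam1, Cd276 and Pvr. For Tnfrsf14 it was 117%, on 17 counts in shGas6. Which Cd47 transcripts were present in each library was not analysed here.

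Of the measured genes listed as ligands of natural killer cell or natural killer T cell receptors, outside the 10 genes, none was higher in shGas6. Of 12 listed genes 8 were in the table and 5 measured, with 2 at least 2-fold lower, 0 at least 2-fold higher and a median log2 ratio of -0.31, or -1.31 when genes of at least 1 count were admitted. Cd1d1, which presents lipids to natural killer T cells, had 256 and 30 counts, 8.68-fold lower (5.93 to 13.1), and passed the filter only through shControl, and the second was Clec2d, given above. The measured NKG2D and NKG2A ligands stayed within 2-fold. The NKG2D ligand Raet1d, part of a family of near-identical genes whose reads may be split, had 71 and 58 counts. Its fold, 1.25 lower in shGas6, had an interval that includes 1 (0.868 to 1.79). Raet1e, another NKG2D ligand named after its values were seen, had 1406 and 1329 counts, 1.08-fold lower (0.998 to 1.16). H2-T23 (Qa-1, the NKG2A ligand) was at 44.3 and 39.7 CPM, 1.12-fold lower (1.05 to 1.18).

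Partners of the ligands, and some further receptors that lymphocytes or phagocytes carry, were read as a check on other cells in the cultures. The further receptors, Cd28, Ctla4, Cd27, Tnfrsf4 and Tnfrsf9, bind ligands outside the 10 genes. Of 20 such genes, 16 were under 1 CPM in both libraries and 9 had 0 counts in both libraries, including Cd226, Itga4, Btla, Cd160, Sirpa and Ctla4 (named after their values were seen, as are Pdcd1 and Itgal). Pdcd1, the receptor of PD-L1, had 0 and 4 counts, and Itgal, the LFA-1 chain that binds ICAM-1, had 0 and 5. Cd96 had 0 and 10 counts. Lower in shGas6 were Cd28 (48 and 16 counts), Itgam (37 and 10), Tnfrsf4 (22 and 9) and Itgb2 (20 and 15). These too were named after their values were seen. The 4 measured genes were Itgb1, a general integrin chain (643 and 562 CPM), Itgb7 (10.8 and 10.9 CPM), Tigit (8.36 and 7.10 CPM) and Tnfrsf9 (5.96 and 4.79 CPM). The part of other cell types in the members' differences was not tested.

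Genes that handle the ligand proteins lay within 2-fold of their control level, in both directions, apart from a collagenase. Of 17 measured genes, 1 was at least 2-fold lower, 0 were at least 2-fold higher and the median log2 ratio was -0.01. Mmp13, the collagenase, was 7.06-fold lower (6.78 to 7.35), from 380 to 53.9 CPM. Cop1, an E3 ubiquitin ligase, was 1.87-fold lower (1.80 to 1.95). Cmtm6, which keeps PD-L1 at the surface, was at 61.4 and 64.3 CPM, and Adam17, a sheddase of VCAM-1 and ICAM-1, at 82.2 and 66.1 CPM (both named after their values were seen).

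Genes of the NF-kB and interferon pathways were read out as lists, and their part in the members' differences was not tested. Of 15 genes for NF-kB subunits and inhibitors, 4 passed 2-fold upward and 0 downward, with 0.46 as the median log2 ratio. The subunits Relb and Rel were 3.88-fold (3.55 to 4.24) and 2.18-fold higher (2.07 to 2.31), and the inhibitors Tnfaip3 and Nfkbie 3.23-fold (3.12 to 3.35) and 2.15-fold, Nfkbie at 9.26 and 19.9 CPM. The other 11 lay within 2-fold, in both directions. Of 16 measured interferon receptor, JAK, STAT and IRF genes, 0 passed 2-fold in either direction and the median was -0.07.

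**Figure D4:**
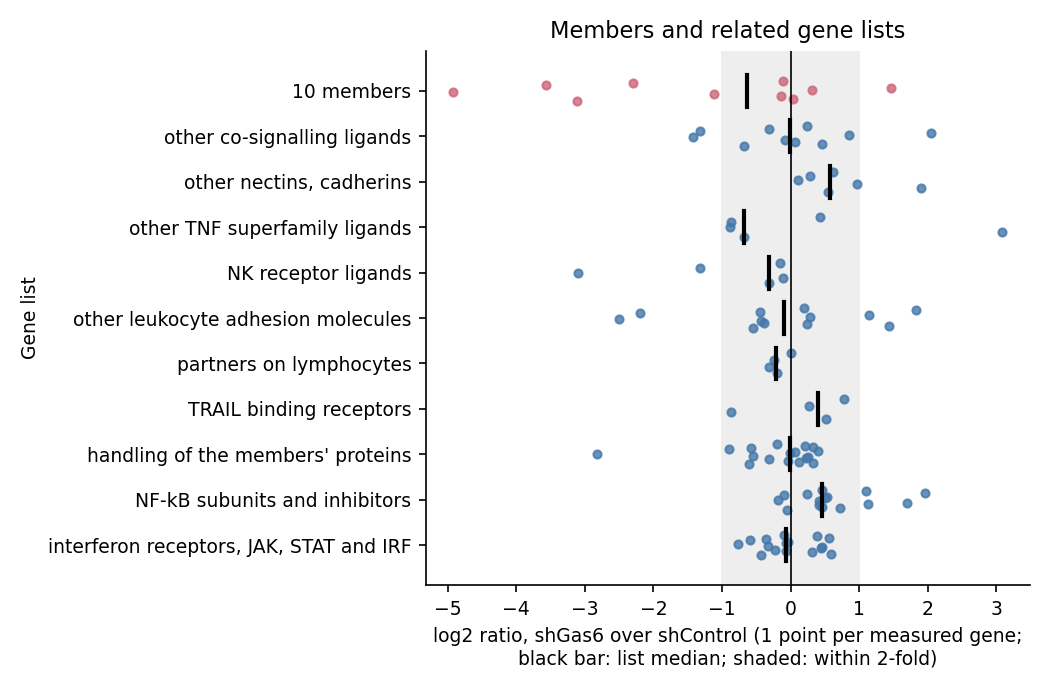
Log2 ratio, shGas6 over shControl (x axis), of every measured gene in the 10 members and in 10 related lists (y axis), with 1 point per gene, black bars at list medians and the range within 2-fold shaded. The member points spread from -4.91 to 1.46, and 4 of the 15 NF-kB genes lie right of the shading.

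The wider surroundings on the chromosome were near their control level. The median log2 ratio of the 50 measured genes around a member (25 on each side) was 0.01 for Vcam1, 0.12 for Vtcn1, -0.03 for Tnfsf10, -0.01 for Tnfrsf14, 0.08 for Cd276 and 0.11 for Pvr. Vcam1, Vtcn1 and Tnfsf10 all lie on chromosome 3, but far from one another. Of the 20 nearest measured neighbours of the 5 lower members (4 each), 1 was at least 2-fold lower (Prxl2b, beside Tnfrsf14, at 1.97 and 0.677 CPM) and 1 at least 2-fold higher (Insyn1, beside Cd276, at 0.492 and 1.33 CPM). Prxl2b passed the 1 CPM filter only through shControl and Insyn1 only through shGas6. Both genes next to Pvr were higher in shGas6, as Pvr was. Ceacam19 had 19 and 75 counts, 3.88-fold higher (2.32 to 6.80), and Igsf23 had 27 and 64 counts, 2.33-fold higher (1.46 to 3.80), and both passed the 1 CPM filter only through shGas6. With the neighbours of Pvr included, 3 of 24 were at least 2-fold higher and 1 at least 2-fold lower. The genes flanking Vcam1, Extl2 and Cdc14a, were at 46.9 and 30.1 CPM and at 17.5 and 23.6 CPM. In the GENCODE annotation of the same build, exons of Vcam1, Icam1, Cd274, Cd276 and Nectin2 overlap an exon of a gene on the opposite strand, by 61 bases for Vcam1 and 511 for Icam1. The sources used here do not give the strand setting of the counting, so reads of such partners cannot be told apart from those of the members.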

How the data were processed

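Poly(A) RNA of 2 YTN16 cultures was sequenced, 1 library per group, from a stranded kit per the labels' protocols. Per the submitters' processing notes, Trimmomatic was used and the build was GRCm38 (mm10). Aligner, counter, strand setting and annotation release: not given in the sources used here. Per the file headers, the authors deposited a raw read count, an FPKM and a TPM value for each gene and library. The deposited counts are the main basis. The deposited FPKM and TPM values, which the authors scaled for length and library size, served for levels between genes and as alternatives.

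Columns were assigned to samples by name. Library scaling used TMM factors from edgeR 4.0.16 in R 4.3.3. The log2 ratio adds a pseudocount of 0.5 to each scaled count. Folds are ratios of scaled counts without a pseudocount, with exact (Clopper-Pearson) 95% intervals of the binomial split of a gene's counts (scipy 1.17.1). These, and the limit of 3 counts behind a count of 0, cover counting error only. PCR copies are not separate molecules, which the intervals do not take into account. The median measured gene was counted 1506 times in shControl and 1577 times in shGas6. With 1 library per group no test was made. Data were also simulated (13367 genes) with Poisson counting error only, the error that the intervals assume. There, 100% of genes changed 3-fold or 4-fold passed the 2-fold mark, and 95.1% of the intervals of unchanged genes held the true value. This checks the computation and says nothing of the spread between cultures or libraries.

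The members and lists were chosen with earlier results of these data known. Besides the members, Gas6 and Axl, the text names up to 4 measured genes per list with the largest absolute log2 ratio, the 2 nearest measured genes on each side of a member, and the 2 genes nearest to each member past 2-fold in log2 CPM of both libraries. Other genes, chiefly cell type markers, were named after their values were seen. The result for 1 gene of the interferon list is not reported here. Promoter stretches (8 of 10 members matched, all but Vcam1 and Pvr) and positions are from RefSeq, GRCm38.p6. As alternatives, the scaling was replaced by total counts, by the upper quartile or by size factors of DESeq2 1.42.0. The pseudocount was set to 5, the filter to 1 count or to 5 CPM, and the threshold to 1.5-fold, to 4-fold or to an interval wholly beyond 2-fold. TPM and FPKM were used with a pseudocount of 0.1, and the local median was subtracted.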

Additional observations from a re-analysis of the deposited data

How the results depend on the processing

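The numbers of members at least 2-fold higher (1) and lower (5) were the same under the 3 other scalings, the pseudocount of 5, the filter of 1 count, the 1.5-fold threshold, the counting interval, TPM, FPKM and the local correction. At 5 CPM, 2 members were lower, since Vtcn1, Tnfrsf14 and Tnfsf10 drop out by construction, and at 4-fold 0 were higher. The counts over all measured genes (1155 higher, 828 lower) were 4202 and 3339 with the filter of 1 count, 729 and 466 with the 5 CPM filter, 2145 and 1679 past 1.5-fold, and 422 and 342 past 4-fold, again by construction. Of 86 member log2 ratios, 75 stayed inside their counting intervals, 10 left them, and 1 whose interval excludes 0 turned, that of Cd47, at 0.015 with TPM. The 75 include the values under both filter settings. A filter only chooses which genes are kept, so those member values equal the main ones by construction. With FPKM and its pseudocount, which is large against these genes, Vtcn1, Tnfrsf14 and Tnfsf10 were at -3.47, -2.19 and -1.14. Vcam1 ranged from -3.61 to -3.51 and Pvr from 1.36 to 1.51. Of 90 list medians, 75 stayed, 14 left the median of their members' intervals, and 1 with those bounds clear of 0 turned, that of the other TNF ligands, at 0.43 with the filter of 1 count, which adds scarce genes. Values whose intervals include 0 could also change sign, as Nectin2 did in 2 of 9 settings (to -0.17 with the local correction, outside its interval), and the medians of the B7 list (-0.23 to 0.02), of the adhesion list (-0.41 to 0.08) and of the handling list (-0.05 to 0.04) lay on both sides of 0. The median of the natural killer cell ligands ranged from -1.31 with the filter of 1 count to -0.23. No paired analysis was possible because each group has 1 library. Replicates could not be left out for the same reason.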

Other observations

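Tigit, a lymphocyte receptor of CD155, was counted in both libraries, at 425 counts in shControl and 367 in shGas6 (8.36 and 7.10 CPM), while Cd3e had 0 and 3 counts, Cd8a 0 in both and Ptprc 23 and 8. No exon of another GENCODE gene overlaps its exons. Tnfrsf9 (4-1BB), the receptor of the Tnfsf9 ligand, was also counted, at 303 and 248. Itgb7, a chain of an integrin that binds VCAM-1, had 550 and 563 counts, whereas its partner chain Itga4 had 0 in both. Among endothelial markers, Cdh5 (VE-cadherin) had 601 and 193 counts, 3.17-fold lower in shGas6 (2.69 to 3.75), and Vwf 76 and 9 counts. Eng had 64 and 36 counts and Tie1 had 4 and 0. Pecam1 was level at 30 and 29 counts, Emcn had 0 and 4, and Kdr, Tek and Cldn5 were at 0 in both. Axl, the receptor of GAS6, was at 599 and 449 CPM.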
